A study of Mus musculus with 104 samples.

Results

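The genes described here encode the machinery that docks, primes and fuses synaptic vesicles, and they were taken by symbol: the synaptotagmins (Syt), syntaxins (Stx), syntaxin binding proteins (Stxbp), vesicle associated membrane proteins (Vamp), complexins (Cplx), synapsins (Syn), Snap genes, the SV2 proteins and the Rab3 GTPases. The rule found 62 genes among the 18193 genes measured: 16 Syt, 14 Stx, 6 Stxbp, 5 Snap, 7 Vamp, 4 Cplx, 3 Syn, 3 Sv2 and 4 Rab3 genes. Of the 66 RefSeq genes whose symbols fit the rule, 4 had no probe set of their own and were not analysed here. The choice rests on names, so it also takes in genes that are not parts of the fusion complex, such as Snap91, which encodes the clathrin adaptor AP180.

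RNA came from 52 pieces of tissue, with 2 Affymetrix arrays each: 49 pieces of brain and spinal cord, and the retina, pineal gland and pituitary. The donors were Balb/c males of 7 to 8 weeks that had adapted for 2 weeks to a day with 12 hours of light. Samples were taken under that cycle or in constant darkness, and the labels do not say which applies to which array. Each array held RNA pooled over 6 time points at intervals of 4 hours. The labels name no altered gene and no agent, and the groups compared are regions. The tissue labelled preoptic area is called POA/BF (preoptic area and basal forebrain) in the study's title and is written so here. Each region was sampled on 2 occasions, but the labels do not say that the animals differed, so p-values measure the spread between 2 arrays, which may be partly technical.

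When an action potential reaches a nerve terminal, calcium enters and binds a synaptotagmin on the vesicle. The vesicle protein Vamp then zippers with a syntaxin and a Snap protein of the plasma membrane into a SNARE complex that pulls the membranes together, while complexin clamps and primes that complex. Syntaxin binding proteins guide its assembly, synapsins tether vesicles in reserve, SV2 proteins ready vesicles for release, and Rab3 brings them to the release site. Most of these proteins exist as paralogs, so that neurons can use different versions for the same step, and relatives outside the synapse serve secretory granules, endosomes, the Golgi apparatus and glia.

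All levels below are log2 values of a gene's brightest probe set, so a difference of 1 is 2-fold. Levels of different genes cannot be compared, since probes differ in brightness. The median of all values was 7.39, array medians ran from 7.33 to 7.46, and the 2 arrays of each tissue had r = 0.972 to 0.998 with each other across genes. The median SD between the 2 arrays of a region was 0.07 over all genes and 0.08 over the 62 genes, and the arrays' number limits the precision. The retina stood apart, with the lowest correlation and a median SD of 0.17 over all genes. Its arrays also held pituitary hormone mRNA: Gh stood at 14.69 in the retina and 14.70 in the pituitary, against a median of 7.51 elsewhere, while the photoreceptor genes Sag and Crx reached 12.75 and 9.04. The arrays labelled lateral hypothalamus held Pmch and Hcrt, its defining peptide genes, at 7.70 and 7.55, against 13.98 and 11.11 in the dorsomedial hypothalamic nucleus. Names of regions are used as labelled. In tissue, fewer cells of a type and less RNA per cell cannot be told apart.

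Across all regions, 55 of the 62 genes (88.7%) were called variable, by a limma F test with an adjusted p under 0.05 and a 2-fold range, against 60.3% of all genes. Their median range over regions was 2.56, and that of all genes was 1.24. On adjusted p alone, 62 of 62 genes were called, beside 95.1% of all genes. All 16 Syt, 7 Vamp, 5 Snap, 4 Cplx, 3 Syn and 3 Sv2 genes were called, as were 5 of 6 Stxbp, 3 of 4 Rab3 and 9 of 14 Stx genes. By family, the median range ran from 1.22 for syntaxins to 5.05 for complexins, with 3.34 for synaptotagmins. Within the 49 brain and spinal cord regions alone, 49 of the 62 genes had a range of at least 2-fold, beside 47.5% of all genes. The retina, pineal gland or pituitary held the highest mean of 19 of the 62 genes and the lowest of 29, beside 33.6% and 27.1% of all genes.

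**Figure D1:**
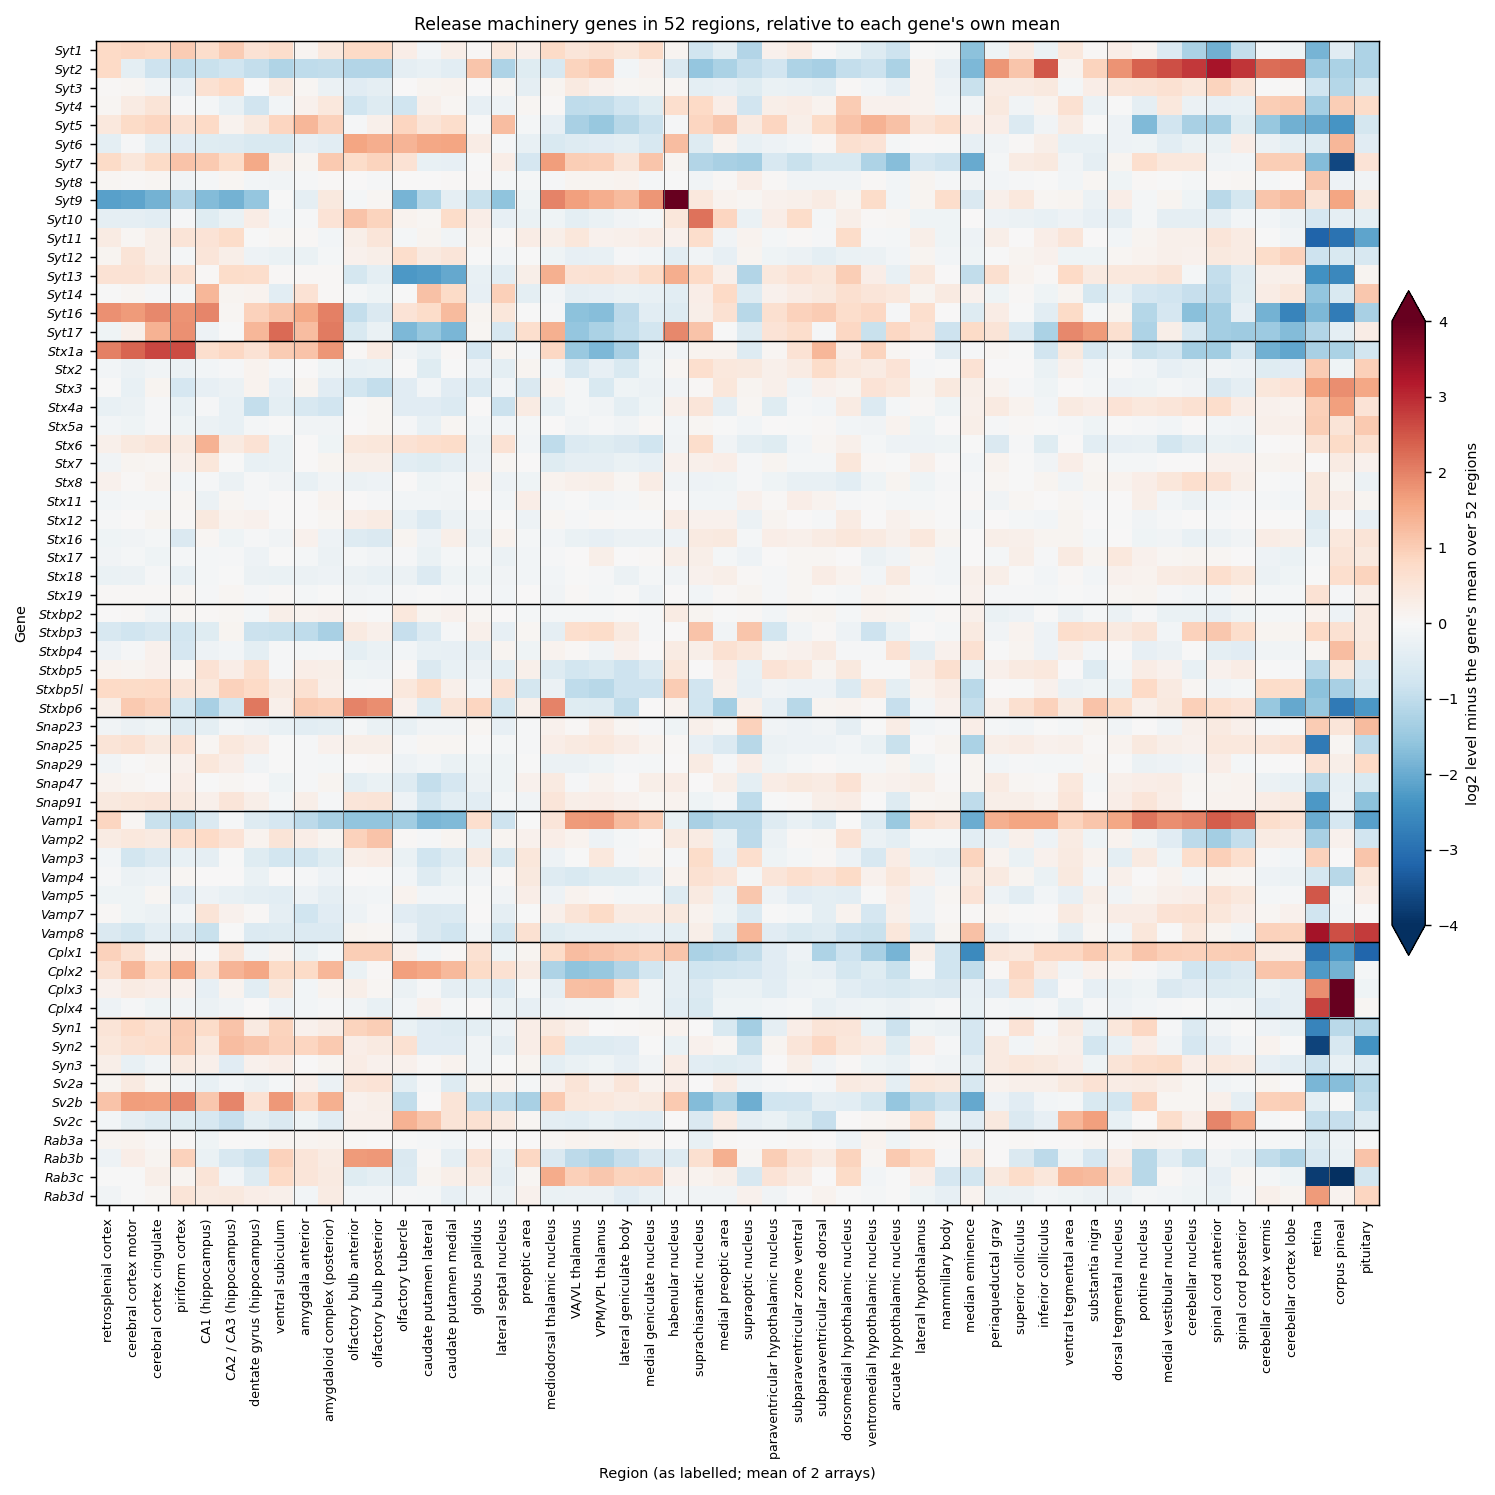
Log2 level of 62 genes (rows, by family) in 52 regions (columns, grouped by anatomy), each value being the mean of 2 arrays minus the gene's mean over all regions, with colours that stop at 4 in either direction. Blue in the 3 columns at the right marks the low levels of Syn2 in the retina and of Rab3c and Syt11 in the retina and pineal gland. Dark red there marks Cplx3 and Cplx4 in the pineal gland, and in the brain, Syt9 in the habenula stands out.

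The promoters of genes whose regional patterns carry the results below are printed here. Each is the 250 bases before the start listed for that promoter in RefSeq's table on GRCm38.p6, 5′ to 3′ on the gene's strand. For Vamp1, Cplx3 and Syn1 that start is the annotated start of the gene. The Syt2 window runs past the annotated start of its gene, chr1:134646534, so its last bases lie within the gene. Matching by symbol gave promoters for 50 of the 62 genes, 66 in all. Capitals mark motifs found by a search of 300 bases (these 250 and the 50 after the start) on both strands. Syt2 and Vamp1 are shown because their levels followed each other across regions, Cplx3 for its level in the pineal gland, and Syn1 because its promoter held 2 of the motifs. They lie at chr1:134646362-134646611 on the plus strand for the upstream of 2 listed Syt2 promoters, chr6:125215331-125215580 on the plus strand for Vamp1, chr9:57606282-57606531 on the minus strand for Cplx3 and chrX:20920919-20921168 on the minus strand for Syn1.
Syt2: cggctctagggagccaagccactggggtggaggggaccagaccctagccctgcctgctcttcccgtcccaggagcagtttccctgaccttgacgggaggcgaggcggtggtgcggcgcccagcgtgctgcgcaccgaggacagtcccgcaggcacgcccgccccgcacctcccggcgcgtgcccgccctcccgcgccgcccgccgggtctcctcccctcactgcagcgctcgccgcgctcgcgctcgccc
Vamp1: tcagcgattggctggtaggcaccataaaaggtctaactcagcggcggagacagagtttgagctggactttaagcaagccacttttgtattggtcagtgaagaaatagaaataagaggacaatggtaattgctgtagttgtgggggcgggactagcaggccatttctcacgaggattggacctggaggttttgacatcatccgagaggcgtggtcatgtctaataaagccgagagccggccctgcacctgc
Cplx3: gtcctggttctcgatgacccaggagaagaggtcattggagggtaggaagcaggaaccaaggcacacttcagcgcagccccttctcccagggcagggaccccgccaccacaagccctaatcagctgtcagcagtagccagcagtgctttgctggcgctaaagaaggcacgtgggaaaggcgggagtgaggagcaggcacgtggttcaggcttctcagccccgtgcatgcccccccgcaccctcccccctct
Syn1: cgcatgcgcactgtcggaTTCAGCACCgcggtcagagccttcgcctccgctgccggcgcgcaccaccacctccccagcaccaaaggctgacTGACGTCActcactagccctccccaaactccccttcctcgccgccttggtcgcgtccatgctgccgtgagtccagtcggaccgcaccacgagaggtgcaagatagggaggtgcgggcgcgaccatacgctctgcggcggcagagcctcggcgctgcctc

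The motifs searched were TAATCC, the core bound by the photoreceptor and pineal factors CRX and OTX2, TTCAGCACC and GGACAGCGC, taken from the left and right parts of the RE1 element bound by the neuronal gene repressor REST, and TGACGTCA, the palindrome bound by CREB. TGACGTCA reads the same on both strands, and no match overlapped another. Syn1 held TTCAGCACC from position -232 and TGACGTCA from position -159, counted from the start of the gene. Over all 32851 promoters of the table, TTCAGCACC occurred in 0.371% and TGACGTCA in 1.79%. TGACGTCA also occurred in the Stxbp3 promoter, and GGACAGCGC in none of the 66 promoters, against 0.405% of all. TAATCC was in 3 of the 66 (4.55%), those of Stx3 and Sv2b, beside 7.06% of all promoters. The printed Cplx3, Syt2 and Vamp1 windows held none of these letters. The GC content was 76.0% for Syt2, 50.4% for Vamp1, 62.8% for Cplx3 and 68.0% for Syn1, with a median of 52.4% over all promoters.

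The first comparison asked how the hindbrain and spinal cord differ from the cortex, using 6 regions (dorsal tegmental nucleus, pontine nucleus, medial vestibular nucleus, cerebellar nucleus and both spinal cord samples) and 8 cortical regions (retrosplenial, motor, cingulate and piriform cortex, CA1, CA2/CA3, dentate gyrus and ventral subiculum). Calcium sensor and vesicle SNARE paralogs changed in opposite directions: Syt2 and Vamp1 were higher in the hindbrain and spinal cord, and Syt1 and Vamp2 were higher in the cortex. Of the 62 genes, 5 were higher and 9 lower, at an adjusted p under 0.05 and at least 2-fold in limma. The same thresholds called 2.63% of all genes higher and 2.59% lower, which compares with 8.06% and 14.5% of the 62. The median difference was -0.05 for the 62 genes and 0.01 for all genes. For 4 of the 62 genes all hindbrain and spinal cord arrays lay above all cortical arrays, and for 4 all lay below, beside 3.96% and 2.58% of all genes.

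Syt2, a fast calcium sensor for release, had a lowest, median and highest value of 10.11, 11.27 and 11.82 on the 12 hindbrain and spinal cord arrays and of 7.21, 7.64 and 9.41 on the 16 cortical arrays. No array of the first group lay within the range of the second. The means were 11.14 and 7.86, a 9.69-fold difference (log2 3.28 ± 0.09, SE; adjusted p = 4.32e-39 in limma). Within the cortex, the retrosplenial arrays were the highest. Over all 52 regions Syt2 was highest in spinal cord anterior, at 11.81 and 11.83 on its arrays, and then in spinal cord posterior, at 11.47 and 11.31. Median eminence had the lowest mean, 6.72, but its arrays lay apart, at 7.44 and 6.01.

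Vamp1, or synaptobrevin 1, ran from 12.55 through a median of 13.21 to 13.56 on the hindbrain and spinal cord arrays and from 10.03 through 10.53 to 12.10 on the cortical ones. The groups did not overlap. It was 5.26-fold higher in the former (2.40 ± 0.04; adjusted p = 5.01e-50 in limma), and peaked in spinal cord anterior at 13.53 and 13.56. Vamp2, or synaptobrevin 2, the main vesicle SNARE of forebrain neurons, ran from 10.32 through 11.14 to 12.09 in the hindbrain and spinal cord and from 11.88 through 12.34 to 12.67 in the cortex. The ranges overlapped slightly, and Vamp2 was 2.16-fold lower in the hindbrain and spinal cord (-1.11 ± 0.06). Spinal cord anterior, with the highest Vamp1, had the lowest Vamp2 mean of the 52 regions, 10.46, and the highest Vamp2 was in olfactory bulb posterior, at 12.99.

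Syt1, the calcium sensor of fast release in forebrain synapses, had values of 10.56, 11.89 and 12.92 (lowest, median, highest) in the hindbrain and spinal cord and of 13.14, 13.40 and 13.72 in the cortex. Every hindbrain and spinal cord array lay below every cortical array. The difference was 2.89-fold (-1.53 ± 0.04; adjusted p = 5.87e-43 in limma). Its extremes over all regions were CA2/CA3, at 13.70 and 13.63, and spinal cord anterior, at 10.56 and 10.89.

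Stx1a, a plasma membrane syntaxin of nerve terminals, had the largest fall of this comparison. Its lowest, median and highest values were 8.73, 9.36 and 10.00 in the hindbrain and spinal cord and 10.62, 11.65 and 12.92 in the cortex. The groups were apart, at 5.54-fold (-2.47 ± 0.04; adjusted p = 6.81e-51 in limma). Cplx2, a complexin of forebrain neurons, was lower as well, without overlap (2.74-fold), while Cplx1, its paralog, stood at 13.77 against 13.11, a difference of 0.67 that missed the fold required. Snap25, the plasma membrane SNARE shared by most synapses, had means of 13.57 and 13.63 and was not called (adjusted p = 0.108 in limma). Rab3a, the main Rab3 of brain synapses, stood at 12.23 in both groups (difference 0.00 ± 0.03).

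The other genes called higher were Syt9 (1.29), Stxbp3, a Munc18 relative found in many cell types (1.20), and Sv2c, an SV2 protein of limited distribution (1.20). Those called lower were Syt16, a synaptotagmin that does not bind calcium (-2.26), Syt5 (-1.59), Syt17 (-1.45), the vesicle protein Sv2b (-1.43) and Syn2 (-1.02). Of these, only Syt5 had groups that did not overlap. The Syn2 difference fell just short of 2-fold without dorsal tegmental nucleus replicate 2, pontine nucleus replicate 1 (-0.99) or spinal cord anterior replicate 1, and it was -0.65 with the mean of all Syn2 probe sets. Regions were split at the median level of their hybridisation control probes into a lower set (9.65 to 10.96) and a higher set (10.99 to 11.47). The cut did not make the levels equal within a set. Within the lower set (2 and 4 regions) the Vamp2, Syt1, Syn2, Stxbp3 and Sv2c differences were -0.65, -0.69, -0.92, 0.94 and 0.52, each short of 2-fold.

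Myelin genes moved with this comparison. The summed level of 11 oligodendrocyte and myelin genes, given as their mean, ranged from 10.81 to 12.11 over the 6 regions and from 8.84 to 11.15 over the cortex, with 9 of 11 genes called higher. Astrocyte genes were higher as well, 5 of 10 being called, at 11.12 to 11.72 against 10.12 to 10.61 with no overlap. The 12 pan-neuronal genes lay between 11.79 and 12.13 and between 11.40 and 11.92, with 1 called. Over the 49 brain and spinal cord regions, the myelin level correlated at r = 0.82 with Stxbp3, 0.67 with Vamp1 and 0.59 with Syt2, and at -0.60 with Stx1a. The pan-neuronal level correlated with the same genes at r = 0.01, 0.74, 0.52 and 0.05. The part of these cell types in the differences was not tested.

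In the wider release pathway, 3 of 41 measured genes were higher and 10 lower. The 3 were Unc13c, a priming factor (2.26 ± 0.07), Dnm3 and Sypl, and the largest falls were in Ppfia2, an active zone liprin (-2.10 ± 0.08), Pclo, an active zone scaffold (-1.85 ± 0.04), and Synpr, a vesicle protein (-1.72 ± 0.11).

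**Figure D2:**
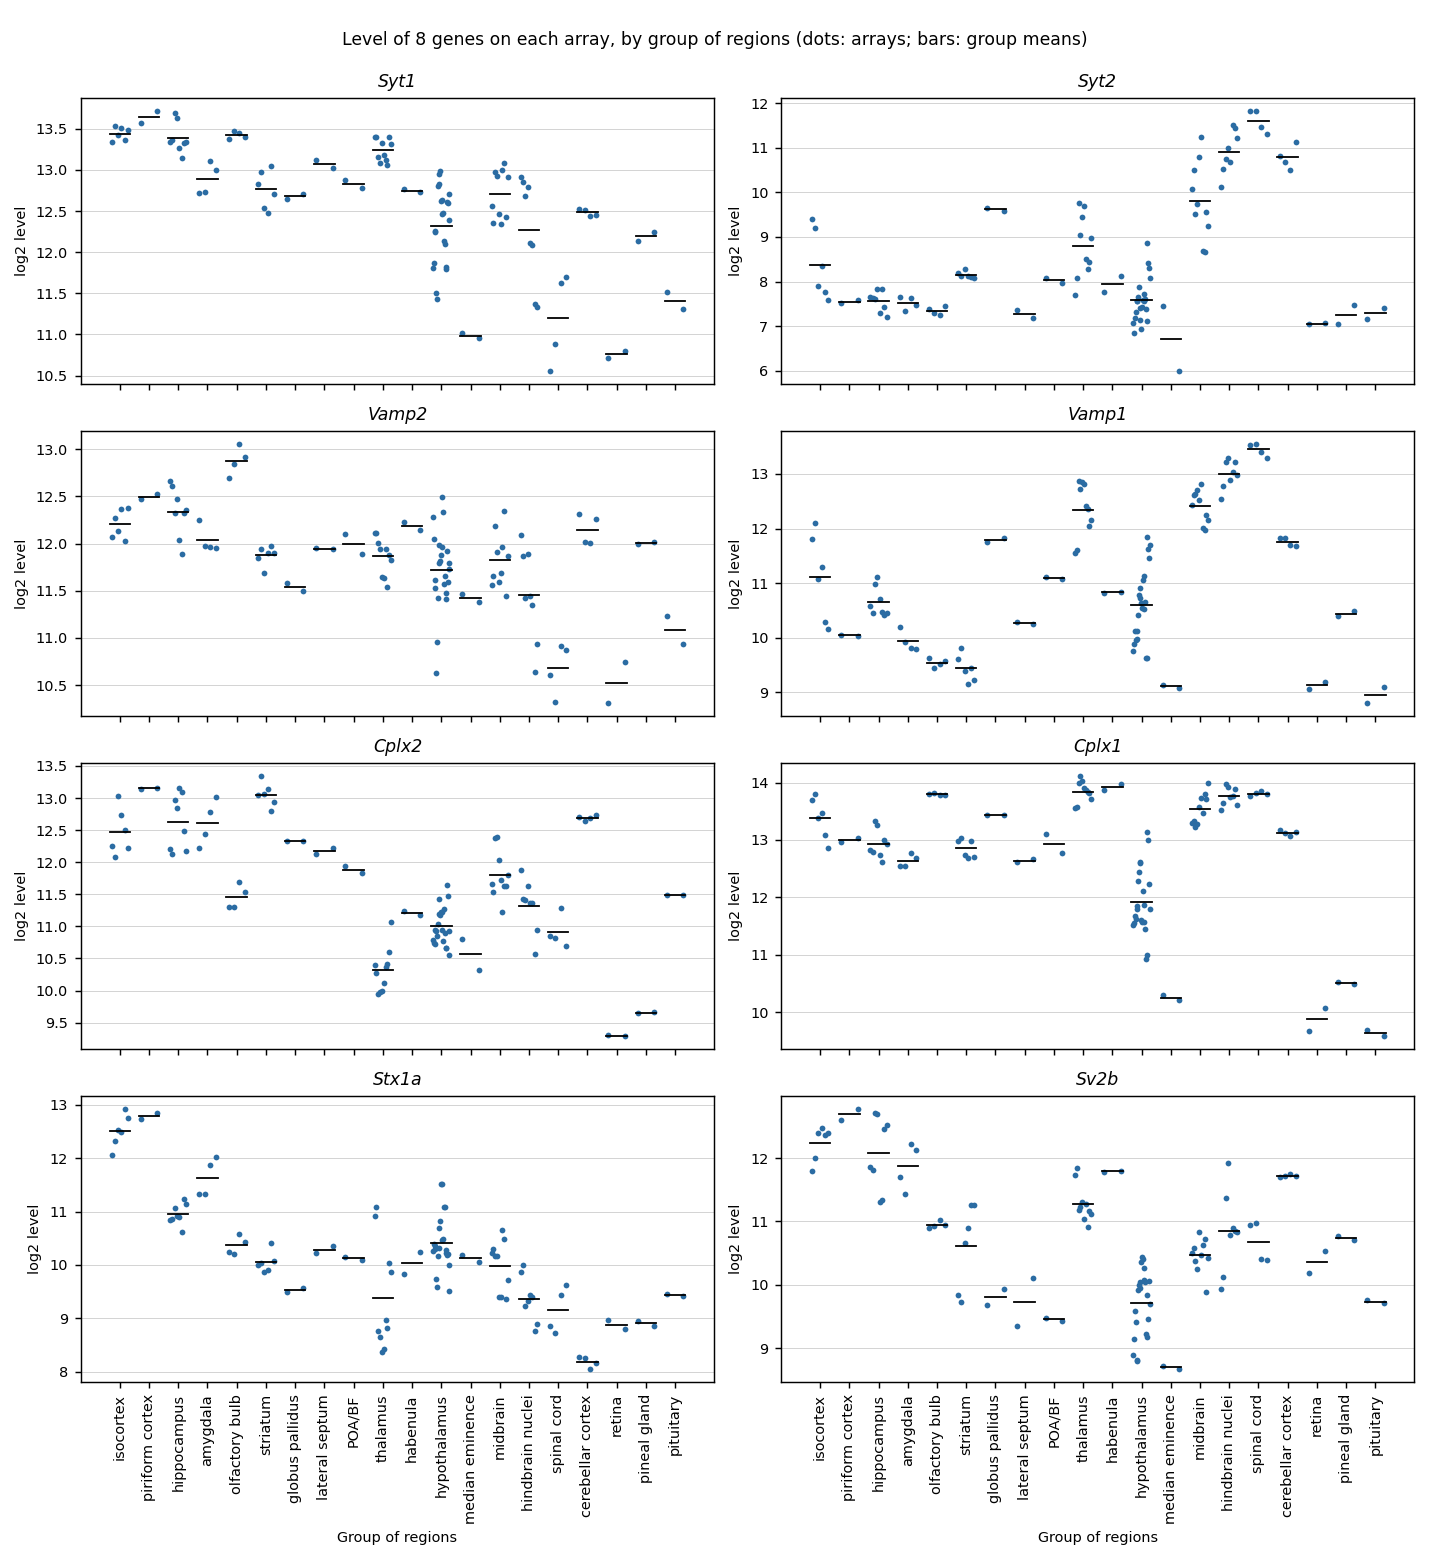
Log2 level on each array (dots) of 8 genes, with region groups along the horizontal axis and bars at group means. Syt2 and Vamp1 are highest in the hindbrain nuclei and spinal cord, where Syt1 and Vamp2 are low; Cplx2 is low in the thalamus, where Cplx1 is high; and Stx1a and Sv2b are high in the cortex, with Sv2b low in the hypothalamus.

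Thalamic nuclei (5 regions, 10 arrays) were set against the same 8 cortical regions, so that this comparison and those of the hypothalamus and striatum share their reference with the first. Of the 62 genes, 2 were higher and 7 lower, with 1.92% and 2.41% of all genes called in these directions. Cplx2 was among the genes that were lower. It ran from 9.94 through a median of 10.32 to 11.07 in the thalamus and from 12.08 through 12.62 to 13.16 in the cortex. The groups did not overlap, and Cplx2 was 5.00-fold lower (-2.32 ± 0.06; adjusted p = 7.95e-41 in limma). Cplx1 was 13.84 in the thalamus and 13.11 in the cortex, a difference of 0.73 ± 0.04 that missed the 2-fold threshold, and its highest mean of the 52 regions was in the ventral anterior and ventrolateral nuclei, 14.05, where Cplx2 had its lowest brain value, 9.96.

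Syt9, a calcium sensor that can drive fast release, was the gene with the largest rise in the thalamus. Its lowest, median and highest values were 9.90, 10.40 and 10.85 in the thalamus and 6.50, 6.95 and 8.87 in the cortex. The groups were separate, with a 9.08-fold difference (3.18 ± 0.06; adjusted p = 3.47e-48 in limma). The cortical mean of 7.20 lies under the median of all values, where signals compress, and its true size is therefore not known; this applies also to every other difference, before and after this one, whose lower mean is under 7.39, such as those of Syt16 in the hindbrain and thalamus, Syt6 in the striatum and Sv2c. Vamp1 was 3.01-fold higher in the thalamus, with overlap, and its difference was 0.99 within the regions of higher hybridisation controls.

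Stx1a was 5.21-fold lower in the thalamus on average, but its nuclei differed. The mediodorsal nucleus reached 11.09, within the cortical range, and the arrays ran down to 8.36, with a median of 8.89. Syt16 (-2.38), Syt5 (-1.64), Stxbp5l, a tomosyn that holds back SNARE assembly (-1.48), Syt17 (-1.46) and Stx6, a syntaxin of the trans-Golgi network and endosomes (-1.12), were lower too. With region means as the samples, Syt17 was no longer called (adjusted p = 0.0759 in limma). Its difference was -0.48 within the regions of higher hybridisation controls (2 and 4 regions). The nuclei differed in Syt17 too, with 10.33 in the mediodorsal nucleus and 7.33 to 8.16 in the other thalamic nuclei. The Stx6 difference was -0.58 with the mean of its 6 probe sets, the other 5 of which correlated with the brightest at r = -0.07 to 0.94 over regions. Myelin genes stood at 10.47 to 11.82 in the thalamus, with 10 of 11 called higher than in the cortex, 2 of 10 astrocyte genes were higher too, and their part was not tested. Among pathway genes, 2 were higher, Unc13c (2.56 ± 0.08) and Rims3 (1.95 ± 0.07), and 7 were lower, led by the dense core vesicle factor Cadps2 (-3.19 ± 0.12), Synpr (-3.09 ± 0.11) and Unc13b (-1.30 ± 0.07).

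Hypothalamic nuclei (11 regions, 22 arrays) had 1 of the 62 genes higher and 7 lower than the cortex, where 1.83% and 2.36% of all genes were called. Sv2b was the most reduced. Its values ran from 8.80 through a median of 9.88 to 10.44 in the hypothalamus and from 11.31 through 12.40 to 12.78 in the cortex. Every hypothalamic array was below every cortical array, a 5.70-fold difference (-2.51 ± 0.05; adjusted p = 2.37e-48 in limma). Its paralog Sv2a, the SV2 protein with the broadest distribution in brain and the binding site of the drug levetiracetam, stood at 12.20 in the hypothalamus and 12.06 in the cortex, far less than 2-fold apart.

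Syt7, a slow calcium sensor tied to asynchronous release and facilitation, ranged from 9.31 through 10.17 to 10.95 in the hypothalamus and from 11.30 through 11.97 to 12.74 in the cortex. It was 3.56-fold lower with no overlap (-1.83 ± 0.07). Cplx2 (-1.63), Stx1a (-1.35), Cplx1 (-1.19), Syt1 (-1.12) and Syt16 (-1.01) were lower, Cplx2 and Syt1 without overlap. Syt9 was 3.57-fold higher (1.83 ± 0.05). The Syt16 call was lost when paraventricular hypothalamic nucleus replicate 1, subparaventricular zone ventral replicate 1, arcuate hypothalamic nucleus replicate 1 or lateral hypothalamus replicate 2 was left out, the lowest size being -0.98.

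Within the regions of lower hybridisation controls the Cplx1, Stx1a, Syt1 and Syt16 differences were -0.99, -0.79, -0.95 and -0.53, each short of 2-fold, while Sv2b, Syt7, Cplx2 and Syt9 stayed called. Of the 12 pan-neuronal genes, 3 were lower and 1 higher in the hypothalamus, where their level lay between 10.72 and 11.83, against 11.40 to 11.92 in the cortex. Astrocyte genes lay at 10.71 to 12.03 against 10.12 to 10.61, without overlap, with 2 of 10 called higher, and the part of either was not tested. Of the pathway, Rims3 rose (1.35 ± 0.06), and 7 genes fell, led by the active zone scaffolds Bsn (-1.66 ± 0.05) and Pclo (-1.40 ± 0.04) and by Rims1 (-1.37 ± 0.04).

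The striatum (olfactory tubercle and both caudate putamen samples, 6 arrays) had 2 genes higher and 6 lower than the cortex, against 1.48% and 1.97% of all genes. Of the 62, 2 lay above and 10 below the cortex on every array, beside 2.05% and 2.61% of all genes. Syt13, a synaptotagmin without calcium binding, was at 7.82, 8.04 and 8.21 (lowest, median, highest) in the striatum and at 10.24, 10.77 and 11.03 in the cortex. The groups were far apart, 6.36-fold (-2.67 ± 0.06; adjusted p = 4.90e-43 in limma). Syt17 fell 5.82-fold (-2.54 ± 0.08), also without overlap, to 6.91 to 7.46. Stx1a (-1.72), Sv2b (-1.61), Vamp1 (-1.31) and Syn1 (-1.16) were lower without overlap, although Stx1a had an adjusted p of 0.0537 in limma with region means as the samples and Syn1 a difference of -0.97 among regions with higher hybridisation controls.

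Sv2c rose in the striatum, from a cortical median of 6.82 to 8.41 (1.50 ± 0.12). Its 6 striatal arrays ran from 7.54 to 8.70, all above the cortical maximum of 7.19. Syt6 was 3.81-fold higher on its brightest probe set, with a median of 9.16 and no array as low as the cortical maximum of 7.66, but its other 3 probe sets correlated with that one at r = -0.16 to 0.19, and their mean gave 0.53. The olfactory bulb, at 9.22 and 9.11, held Syt6 at about the striatal level in its anterior and posterior samples. Pan-neuronal genes lay at 10.99 to 11.09 in the striatum and 11.40 to 11.92 in the cortex, with 3 of 12 lower, and their part was not tested. In the pathway, 3 genes rose, Unc13c (2.27 ± 0.09), Doc2b, a calcium sensor of spontaneous release (1.71 ± 0.08), and Synpr (1.68 ± 0.14), and 9 fell, led by Cadps2 (-3.54 ± 0.15), Ppfia2 (-1.52 ± 0.09) and Doc2a (-1.50 ± 0.09).

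The cerebellar cortex (vermis and lobe, 4 arrays) was compared with the other 47 brain and spinal cord regions. Of the 62 genes, 5 were higher and 6 lower, where 2.78% and 2.73% of all genes were called. Stx1a was at 8.06 and 8.16 in the lobe and 8.27 and 8.26 in the vermis, below each of the 94 other arrays, which ran from 8.36 through 10.22 to 12.92. The fall was 4.43-fold (-2.15 ± 0.06; adjusted p = 1.61e-40 in limma). Syt16 (-2.49), Stxbp6, the SNARE binding protein amisyn (-2.00), Syt5 (-1.91), Syt17 (-1.69) and Rab3b (-1.13) were lower with overlap.

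Syt2 was 4.85-fold higher in the cerebellar cortex (2.28 ± 0.13), at 10.51 to 11.13, which is inside the range of the other regions, 6.01 to 11.82, with a median of 8.08. Syt9 (1.29), Vamp8 (1.14), Cplx2 (1.09) and Syt4 (1.06), a synaptotagmin of dense core vesicles, were the other genes called higher. Set against the spread between regions, with region means as the samples, Syt2, Syt9, Cplx2, Syt17 and Rab3b lost their calls (adjusted p = 0.104, 0.299, 0.238, 0.150 and 0.143 in limma). Without cerebellar cortex vermis replicate 1, the Syt4 difference fell just under 2-fold, and Syt9 was at 0.90 among regions with lower hybridisation controls. Microglial genes stood at 8.03 to 8.06 against 8.45 to 10.10 in the other regions, with 4 of 9 lower, and their part was not tested. In the pathway, 8 genes were higher, led by Cadps2 (2.66 ± 0.16), Unc13c (1.85 ± 0.10) and Doc2b (1.60 ± 0.09), and 4 lower, led by Doc2a (-1.70 ± 0.09), Erc2 (-1.62 ± 0.07) and Rab27b (-1.49 ± 0.11).

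POA/BF, the tissue in the study's title, was set against the mean of the other 51 regions, and differed little in these genes. None of the 62 was called higher and 1 lower, against 1.53% and 0.115% of all genes; at an adjusted p alone, 12 were higher and 11 lower, beside 13.3% and 14.3% of all genes. The gene called was Sv2b, at 9.48 and 9.43 in POA/BF and from 8.68 through 10.81 to 12.78 on the other 102 arrays. Its POA/BF level was in the lower part of the range, rank 48 of 52, and 2.51-fold under the mean of the others (-1.33 ± 0.11; adjusted p = 3.40e-16 in limma). With region means as the samples it was not called (adjusted p = 1.00 in limma). Meningeal and fibroblast genes moved with POA/BF, 8 of 9 being higher, at a mean level of 10.30 against 7.13 to 11.60, as did 3 of 10 astrocyte and 2 of 10 endothelial and pericyte genes, and their part was not tested. None of the 41 pathway genes was called in either direction.

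**Figure D3:**
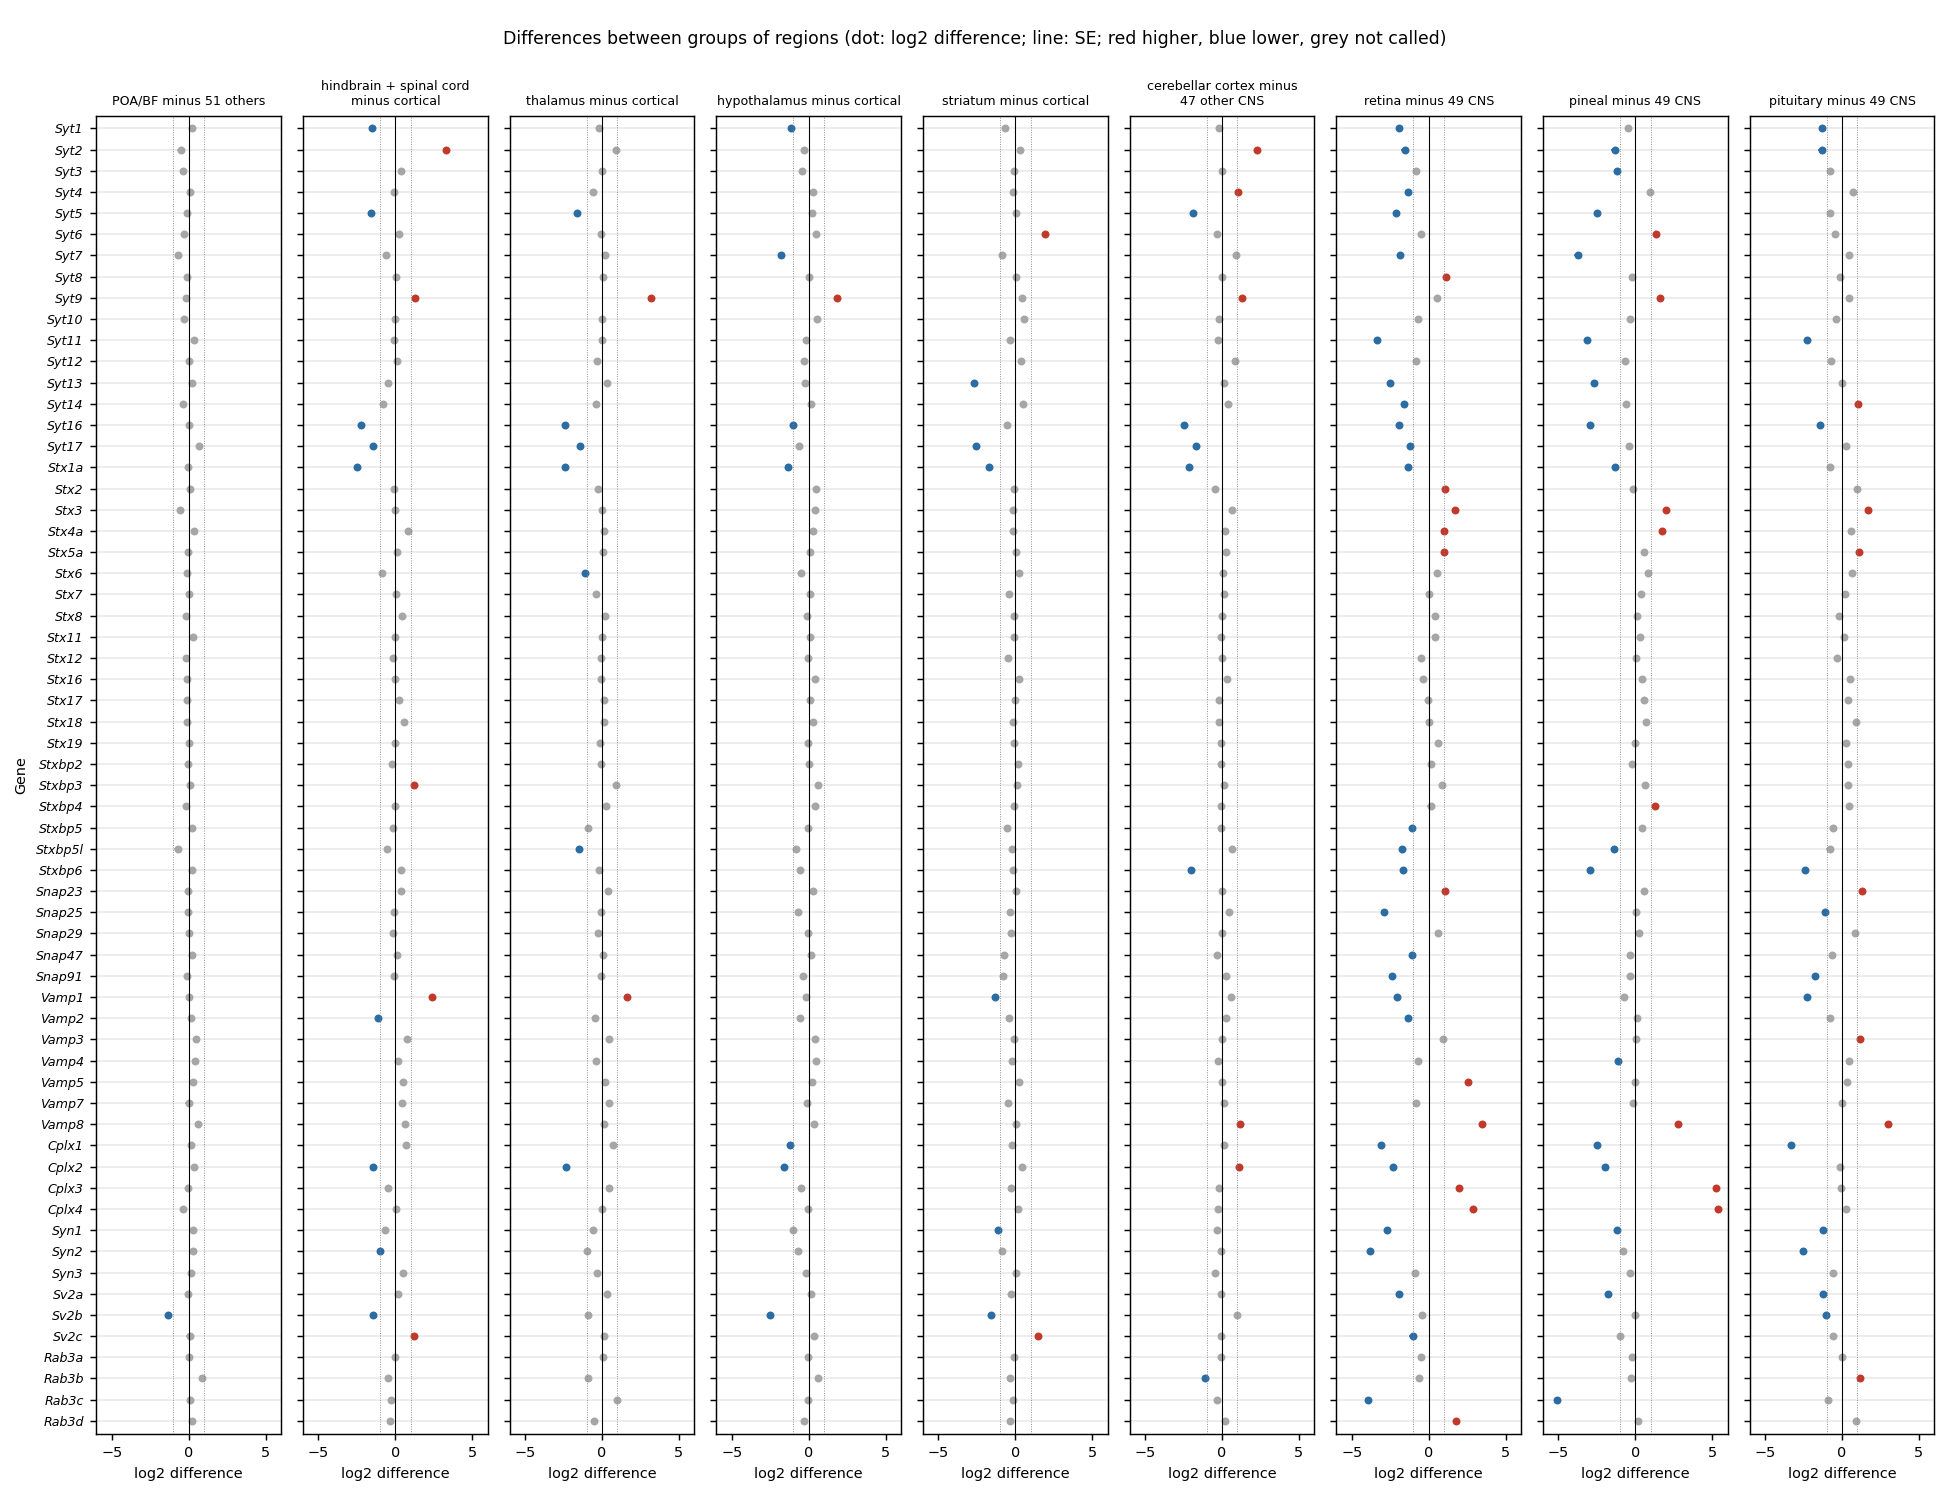
Log2 difference (dot) with its SE (line, often hidden by the dot) for 62 genes (rows) in 9 comparisons (panels); red dots were called higher, blue lower, and grey not called, with dotted lines at 2-fold. POA/BF has 1 coloured dot, the comparisons among brain regions have 8 to 14, and the retina, pineal gland and pituitary have 37, 24 and 20.

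Outside brain and spinal cord, the pineal gland held the largest difference of a single gene, while the retina had more genes called. Of the 62, 8 were higher and 16 lower than the mean of 49 brain and spinal cord regions, with 7.52% and 7.78% of all genes called. The complexins of ribbon synapses, Cplx3 and Cplx4, which serve the tonic release of photoreceptors and bipolar cells, were the most increased. Cplx3 measured 13.12 and 13.02 in the pineal gland, and from 7.21 through 7.73 to 9.35 on 98 brain and spinal cord arrays. The difference was 37.6-fold (5.23 ± 0.13; adjusted p = 1.67e-42 in limma). Cplx4 measured 11.59 and 11.31 in the pineal gland and between 5.63 and 6.50 in brain and spinal cord, a 40.9-fold difference (5.36 ± 0.10; adjusted p = 1.90e-49 in limma) whose lower mean, 6.10, is under the median of all values. Both pineal arrays were above every brain array for both genes.

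Cplx1 and Cplx2 went the other way in the pineal gland, at 10.49 to 10.53 (-2.48 ± 0.08) and at 9.65 to 9.66 (-1.99 ± 0.11). Snap25, in contrast, was at 13.34 and 13.39, beside a brain mean of 13.35 (0.02 ± 0.06; adjusted p = 0.842 in limma). Vamp2 and Sv2b were likewise not called. Stx3, the syntaxin that takes the place of syntaxin 1 at retinal ribbon synapses, was 3.92-fold higher (11.27 and 11.37, brain maximum 10.29), while Stx1a was 2.53-fold lower. Vamp8, or endobrevin, a SNARE of secretory granules and endosomes (2.75), Stx4a (1.70), Syt9 (1.62), Syt6 (1.34) and Stxbp4 (1.26) were also higher; the Syt6 and Stxbp4 rises were 0.30 and 0.72 with the mean of their probe sets. With region means as the samples, Syt9, Syt6, Cplx2, Stx1a, Syn1, Syt2, Stxbp5l and Syt16 were no longer called in the pineal gland (adjusted p from 0.0506 to 0.597 in limma).

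The largest falls in the pineal gland were in Rab3c, a neuronal Rab3, and Syt7. Rab3c measured 6.41 and 6.66 in the pineal gland and from 10.27 through 11.58 to 12.96 in brain and spinal cord. That was a 34.6-fold fall (-5.11 ± 0.11; adjusted p = 1.25e-45 in limma), while Rab3a stood at 11.99 against 12.21. Syt7 was 13.4-fold lower, at 7.34 and 7.72. Syt11 (-3.12), Stxbp6 (-2.96), Syt16 (-2.93) and Syt13 (-2.67) followed, each below all brain arrays except Syt16. Pan-neuronal genes were low in the same tissue, 7.61 against 10.47 to 12.13, with 10 of 12 lower, while 5 of 7 photoreceptor genes were higher (10.17 against 6.26 to 6.68). Of the other lists, 10 of 11 myelin genes (7.01 against 7.63 to 12.11) and 8 of 10 astrocyte genes (8.79 against 9.94 to 12.03) were lower, and 7 of 9 meningeal and fibroblast genes (10.34 against 7.13 to 10.36) and 4 of 10 endothelial and pericyte genes (9.44 against 8.40 to 9.85) were higher. Unc13b, a priming factor, was the pathway gene called higher (2.35 ± 0.12), and 18 were lower, led by Cadps (-5.13 ± 0.09), Synpr (-3.67 ± 0.20) and Dnm3 (-3.58 ± 0.09). The part of the cell makeup in these differences was not tested.

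The retina arrays had 11 of the 62 genes higher and 26 lower than brain and spinal cord, with 13.0% and 8.46% of all genes called. The median difference was -0.72 for the 62 genes and -0.05 for all genes. Cplx4 measured 8.86 and 9.08, above all 98 brain arrays (2.87 ± 0.10). Cplx3 measured 9.13 and 10.51, and the lower of these lay inside the brain range, whose maximum of 9.35 was in the thalamus (1.98 ± 0.13). Vamp8 measured 12.36 and 12.72, beyond the brain maximum of 10.62 (3.49 ± 0.09; adjusted p = 3.58e-41 in limma). Vamp5, a SNARE of muscle and other non-neuronal cells (2.55), Rab3d, a Rab3 of secretory granules (1.77), and Stx3 (1.71) were higher as well.

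The 26 genes called lower on the retina arrays included Snap25 and both main synapsins. Snap25 measured 10.48 and 10.43, against 12.00 to 13.99 in brain and spinal cord (-2.89 ± 0.06; adjusted p = 6.72e-47 in limma). Syn1 measured 8.53 and 8.86, against 9.82 to 12.55 (-2.74 ± 0.09), and Syn2 7.53 and 7.71, against 10.39 to 12.57 (-3.83 ± 0.13). None of these retina values reached the brain range. Rab3c (-3.97), Syt11 (-3.38) and Cplx1 (-3.11) were the other genes with the largest falls, and Stx1a, Syt1, Vamp1, Vamp2, Sv2a and Cplx2 fell by 1.35 to 2.35. With region means as the samples, Stx1a, Vamp1, Syt7, Syt5, Syt17, Syt16, Stxbp6, Sv2c and Syt2 were no longer called in the retina (adjusted p from 0.0540 to 0.428 in limma).

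These values come from arrays that also hold pituitary hormone mRNA, as noted above. All 12 pan-neuronal genes were lower (8.24 against 10.47 to 12.13), 7 of 9 meningeal and fibroblast genes higher (11.60 against 7.13 to 10.36), and 7 of 7 anterior pituitary genes higher (12.05 against 6.77 to 9.19). Photoreceptor (6 of 7), endothelial and pericyte (7 of 10) and microglial genes (6 of 9) were also higher, and myelin (9 of 11) and astrocyte genes (5 of 10) lower. The part of each in the differences was not tested. The calls of Snap23, Snap47, Stx2 and Stx5a were lost without retina replicate 1, and those of Stx4a, Stxbp5, Sv2c, Syt4 and Syt8 without replicate 2. Of the pathway, 2 genes were higher, Sypl (1.44 ± 0.10) and Unc13b (1.40 ± 0.12), and 32 of 41 lower, led by Erc2 (-3.29 ± 0.10), Dnm3 (-3.00 ± 0.09) and Pclo (-2.87 ± 0.08).

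**Figure D4:**
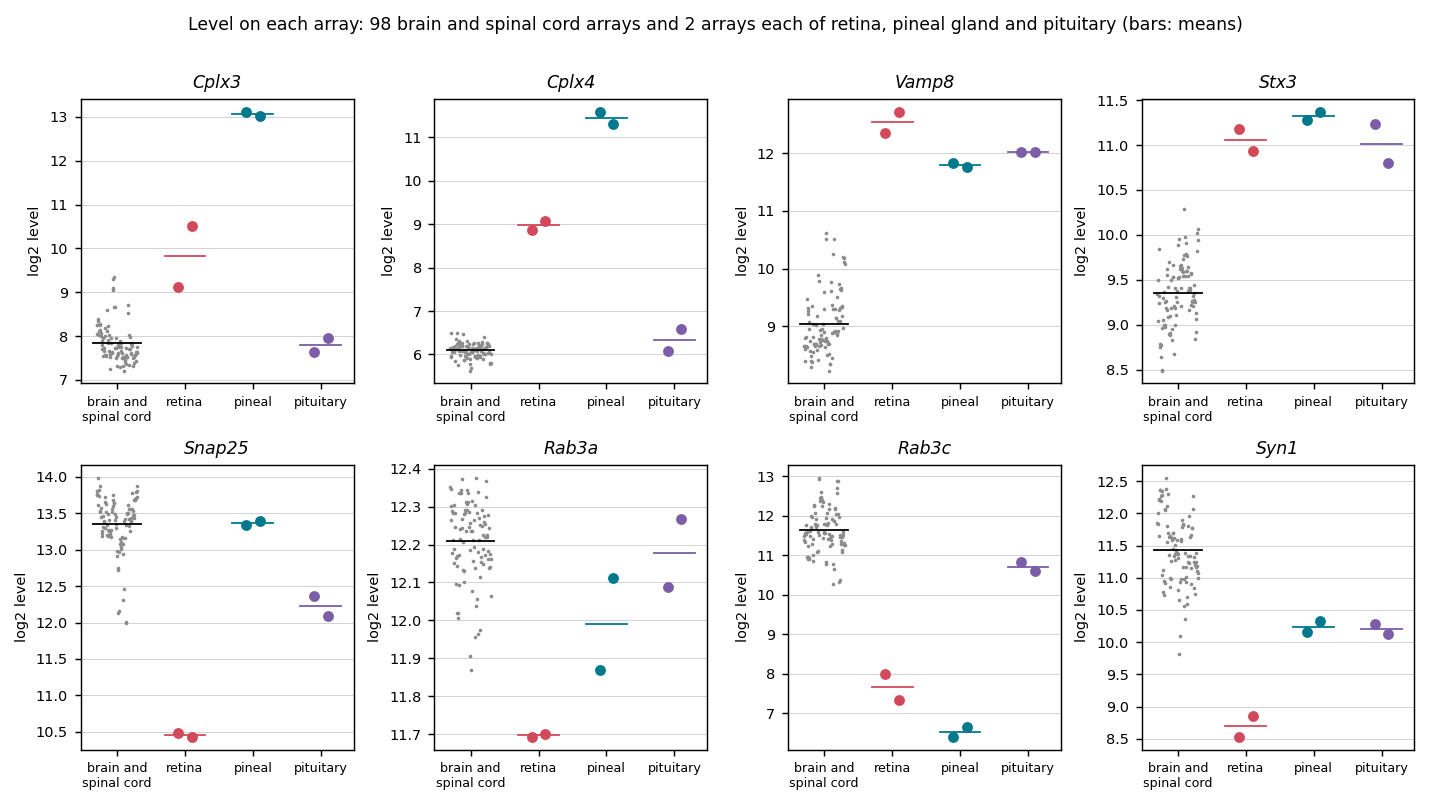
Log2 level of 8 genes on 98 brain and spinal cord arrays (grey) and on 2 arrays each of retina, pineal gland and pituitary (coloured), with bars at means; vertical axes differ and do not start at 0. Cplx3 and Cplx4 are highest in the pineal gland, Vamp8 and Stx3 are high in all 3 tissues, Snap25 is low in the retina and at brain level in the pineal gland, and Rab3a spans a narrow range.

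The pituitary had 7 genes higher and 13 lower, with 6.10% and 7.24% of all genes called. Vamp8 measured 12.03 and 12.01 there, against 8.23 to 10.62 in brain and spinal cord, a 7.86-fold rise (2.98 ± 0.09; adjusted p = 6.54e-37 in limma). Stx3 (1.66), Snap23, the relative of Snap25 in non-neuronal secretion (1.32), Rab3b, a Rab3 of endocrine cells (1.15), Vamp3 (1.14), Stx5a of the Golgi apparatus (1.09) and Syt14 (1.06) were the others. Cplx1 measured 9.70 and 9.59, below all brain arrays (10.21 to 14.11), a 10.1-fold fall (-3.34 ± 0.08; adjusted p = 2.53e-44 in limma). Syn2 (-2.53), Stxbp6 (-2.43), Syt11 (-2.29), Vamp1 (-2.25) and Snap91 (-1.74) followed.

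Cplx2 had a level of 11.49 in the pituitary, close to its brain mean of 11.65, and Snap25, at 12.36 and 12.08, was 2.19-fold lower, although not without replicate 2, where the fall came just short of 2-fold. The Syt14 rise was 0.96 without replicate 1. The Stx3 rise was 0.96 with the mean of its probe sets. The Rab3b, Vamp3, Syt14, Stxbp6, Vamp1, Syn1, Syt1, Syt2, Syt16 and Sv2b calls were lost with region means as the samples (adjusted p from 0.0627 to 0.623 in limma). All 12 pan-neuronal genes were lower (8.75), as were all 11 myelin and 10 astrocyte genes, while 7 of 7 anterior pituitary and 5 of 9 meningeal and fibroblast genes were higher, and the part of cell makeup was not tested. In the pathway, Rab27b, a GTPase of secretory granules, was higher (1.08 ± 0.15), and 21 genes were lower, led by Dnm1 (-3.25 ± 0.08), Unc13c (-2.72 ± 0.14) and Syngr3 (-2.71 ± 0.09).

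Several genes had a peak in a single region. Syt9 reached 13.05 and 13.04 in the habenula, above all other arrays, the mediodorsal thalamic nucleus being next at 10.66 and 10.85 and the retrosplenial cortex lowest at 6.66 and 6.55. Its range of 6.44, or 86.9-fold, was the largest of the 62 genes. Syt10, a calcium sensor for the secretion of growth factor, reached 9.09 and 8.81 in the suprachiasmatic nucleus, the site of the circadian clock, with olfactory bulb anterior next at 8.03 and 7.83. Both suprachiasmatic arrays lay above all others. Rab3c and Syt7 were highest in the mediodorsal thalamic nucleus, at 12.95 ± 0.01 and 12.84 ± 0.02 (SD, n = 2), both arrays above all others. The lead was small, and other regions came close. Next were the ventral tegmental area for Rab3c, at 12.79 ± 0.13, and the dentate gyrus for Syt7, at 12.70 ± 0.07. In CA1, Stx6 measured 11.26 and 11.19 on its brightest probe set, the highest of 52 regions, with the pineal gland next at 10.61.

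Other genes reached similar levels in several regions. Stxbp6 was highest in the dentate gyrus (12.17 ± 0.14, SD, n = 2), the mediodorsal thalamic nucleus (12.07 ± 0.10) and the anterior and posterior olfactory bulb samples (12.06 ± 0.12 and 11.94 ± 0.01); the arrays of the first 3 overlapped, while both dentate gyrus and both mediodorsal arrays lay above both arrays of olfactory bulb posterior. Rab3b was highest in olfactory bulb posterior and anterior, at 11.14 ± 0.01 and 11.12 ± 0.24, followed by the medial preoptic area at 10.82 ± 0.16. Syt17 was highest in the ventral subiculum (11.15 ± 0.07) and posterior amygdaloid complex (10.97 ± 0.07), and Syt16 in the latter (9.26 ± 0.13) and CA1 (9.19). Sv2c was highest in spinal cord anterior (9.24 ± 0.04), and its arrays in the midbrain lay far apart, at 8.04 and 9.82 in the substantia nigra and 7.95 and 9.33 in the ventral tegmental area. Sv2b was highest in CA2/CA3 (12.70 ± 0.01) and the piriform cortex (12.69 ± 0.12), and Syn1 and Syn2 in CA2/CA3 (12.46 and 12.54). Syn3, a synapsin of developing neurons, varied less, from 7.65 in the retina to 9.28 in the medial vestibular nucleus, and Sv2a ran from 10.28 in the retina to 12.67 in the substantia nigra.

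At the other end, Rab3a varied least among the brighter genes, with a range of 0.63 from 11.70 in the retina to 12.33 in the ventromedial hypothalamic nucleus. That holds for its brightest probe set: the other one correlated with it at r = 0.55 over regions, and with the mean of both Rab3a was lower in the retina by 1.46 and in the pituitary by 1.11, each past 2-fold. Next came Stxbp2, a Munc18 of secretory and immune cells (0.74), and syntaxins of the autophagosome and endosomes, Stx17 (0.79), Stx12 (0.91) and Stx7 (0.95). Stx11 and Stx19 were below 7.39 in every region, where a small range says little about their level.

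Paralogs were set side by side over the 49 brain and spinal cord regions, as a description, since regions share neighbours and cell types. Syt2 and Vamp1 rose and fell together, with r = 0.86 (Spearman's rho 0.84), the same as over all 52 regions. Vamp1 and Vamp2 had r = -0.41 (rho -0.31), and -0.23 (rho -0.18) over all 52 regions. Syt1 and Syt2 had r = -0.32 (rho -0.19), and -0.18 (rho -0.04) over all 52. Cplx1 followed Vamp1 (r = 0.64) and Syt2 (r = 0.61), and was almost unrelated to Cplx2 (r = 0.08). Syn1 and Syn2 went together (r = 0.69), Sv2a and Sv2b did not (r = 0.07), and Stx1a was most like Syt16 among all 62 genes (r = 0.88).

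Cplx3 and Cplx4 correlated at r = 0.87 over 52 regions, but at 0.09 without the retina, pineal gland and pituitary, so that the relation rests on those 3 tissues. Within the brain, Cplx3 was highest in some thalamic relay nuclei. Its arrays read 9.09 and 9.35 in the ventral posterior nuclei and 9.05 and 9.30 in the ventral anterior and ventrolateral nuclei. The lateral geniculate body had a mean of 8.66 and the medial geniculate nucleus only 7.84, against a median of 7.70 over all 52 regions. Cplx4 stayed between 5.66 and 6.43 on region means within brain and spinal cord, below the median of all values.

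**Figure D5:**
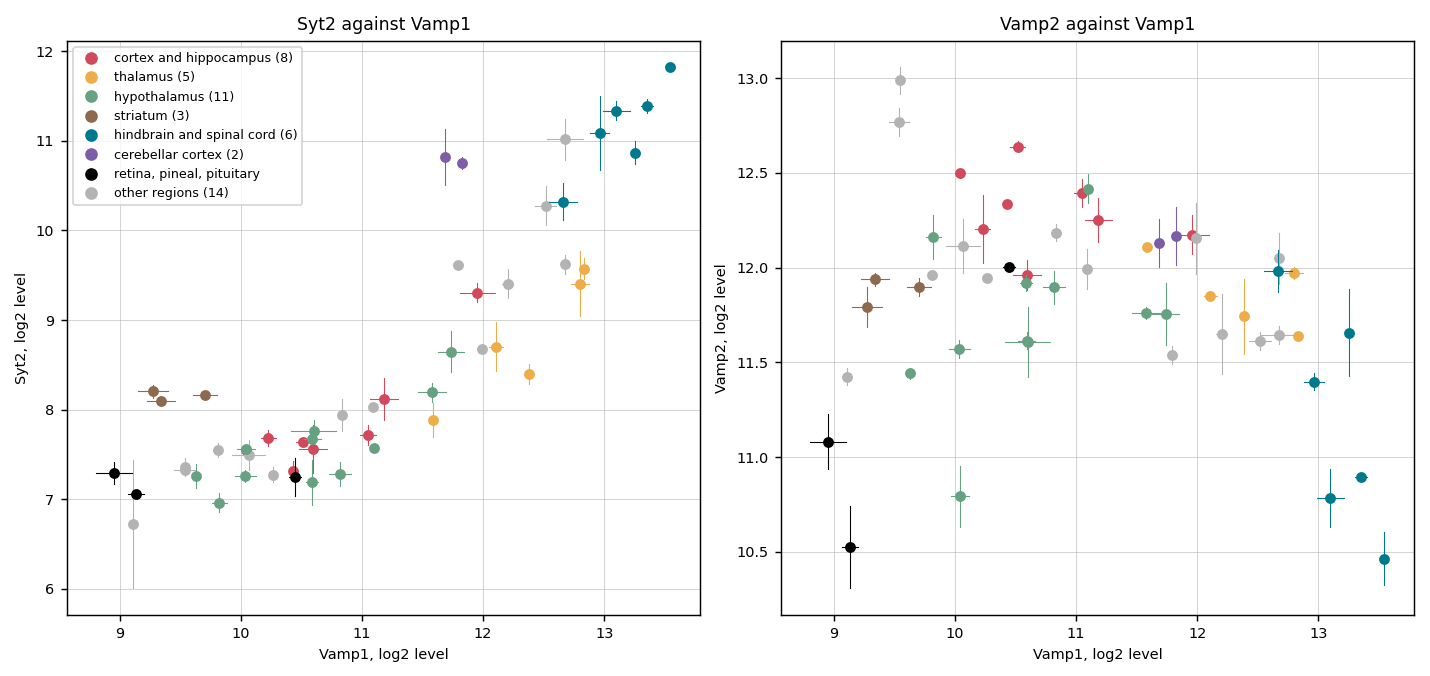
Region means of Syt2 (left) and Vamp2 (right) against Vamp1, in log2 levels, with thin lines joining the 2 arrays of a region and colours for groups of regions. Syt2 rises with Vamp1 from the striatum and hypothalamus to the spinal cord, with the cerebellar cortex above the other regions of similar Vamp1. Vamp2 is lowest in spinal cord anterior, where Vamp1 is highest. The relation is loose: the supraoptic nucleus is also low in Vamp2 (10.79) at a low Vamp1 (10.045), and the pontine nucleus has Vamp2 at 11.66 with Vamp1 at 13.26.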

How the data were processed

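RNA from 52 regions was measured on 104 Affymetrix arrays, 2 per region. The deposited values are log2 levels made with RMA, per the submitters' processing notes; its version and the annotation build used are not given in the sources used here. Of 45101 probe sets, 64 were controls, 34945 had 1 gene symbol, 932 several and 9160 none in the platform annotation. Only those with 1 symbol were used, and the probe set with the highest mean over all arrays stood for each of 18193 genes. This favours bright probe sets, and 42 of the 62 genes had several.

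A model of 52 region means was fitted to all genes with limma 3.58.1 in R 4.3.3 (52 residual degrees of freedom) and checked on simulated data. Comparisons were contrasts of region means, each region weighing the same. P-values were adjusted by Benjamini-Hochberg over all 18193 genes, and calls needed an adjusted p below 0.05 together with a log2 difference of 1 or more. Such p-values set a difference against the spread between arrays of a region, not between regions. An alternative used region means as the samples; others changed the normalization, filter, probe set rule, variance model, regions and arrays. Named genes were those with up to 6 largest called differences in each direction per comparison, the 12 largest and 5 smallest ranges, and fixed paralogs; others named, such as Syt10 and Stx6, were picked with their values in view. The genes, lists and groups were chosen with earlier results of these data known. Replicate numbers showed no pairing of arrays common to all regions, and pairing within some of them could not be judged. The POA/BF control rows were displaced, so that region was in neither set of hybridisation controls. In its own comparison it was set against each set, and in the runs of the other comparisons by set it was left out. Figures were drawn with Python 3.11.15.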

Additional observations from a re-analysis of the deposited data

How the results depend on the processing

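Of the 132 calls of a gene in a comparison, none changed sign under any alternative run. The counts of genes called rose to 23 for POA/BF, 47 for hindbrain and spinal cord, 46 for thalamus, 52 for hypothalamus, 41 for striatum, 40 for cerebellar cortex, 58 for retina, 51 for pineal gland and 54 for pituitary when no fold was required. For POA/BF, 13.3% of all genes were then higher and 14.3% lower. The other counts of the alternative runs have no share of all genes beside them. They show only how the calls depended on the settings. With region means as the samples, the counts were 0 for POA/BF, 6 for cerebellar cortex and 10 for pituitary, and 35 calls were lost in all. Within regions of lower hybridisation controls, 4 genes were called for the hypothalamus. Leaving out each array of the first group in turn gave 1 to 1 for POA/BF, 13 to 14 for hindbrain and spinal cord, 9 to 10 for thalamus, 7 to 9 for hypothalamus, 8 to 9 for striatum, 10 to 11 for cerebellar cortex, 35 to 37 for retina, 25 to 25 for pineal gland and 20 to 21 for pituitary. The F test gave 54 to 56. It was refitted only without each of the 8 arrays of POA/BF, retina, pineal gland and pituitary. The mean of all probe sets ended 11 calls, quantile normalization 6 and array centring 1. With the replicate number as a block, all 10 counts were within 1.5 times the value without it and no call changed. Deviations of same-numbered arrays correlated at -0.503 to 0.524 over all pairs of regions (about 1330), with 24.7% above 0.1. The numbers thus showed no pairing common to all regions. Pairing within some of the regions cannot be judged from the numbers. Leaving out the retina, added after the data were seen, kept the POA/BF count at 1. The causes of these changes were not tested. Signals under the median of all values, 7.39, limit the size of folds, and 2 arrays per region limit the precision.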
